A study of Saccharomyces cerevisiae with 15 samples.

Results

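The direct comparison of Curcumin with CPTH2 in budding yeast used 6 of the 15 RNA-seq samples of the series, namely the 3 samples of the control strain treated with Curcumin and the 3 treated with CPTH2, as their titles give them. The strain was L40 (mat-a, his∆200, trp1-901, leu2-3 with leu2-112, ade2, with lexAop reporters at LYS2 and URA3), and it carried the empty pL220 vector in all of these samples. Cells received Curcumin at 200 µM or CPTH2 at 400 µM for 1 h in SD-L medium with 0.4% DMSO. The 3 DMSO samples, of the same strain with 0.4% DMSO alone for 1 h, are given beside them. The study counts its replicates as biological, 3 per condition, and p-values measure the spread between these cultures. The doses of the drugs differed and a single dose of each was used, so that the agent and its dose cannot be told apart.

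CPTH2 is a synthetic inhibitor of Gcn5, the histone acetyltransferase of the SAGA and ADA complexes, which acetylates lysines in the tail of histone H3 and acts as a coactivator at many promoters. Curcumin is a plant polyphenol described as an inhibitor of the mammalian p300/CBP acetyltransferases, and activities on other targets are known for it. In budding yeast, genes of a pathway are often set by a shared transcription factor that binds a short motif before the coding sequence, for example Gcn4 and Lys14 for lysine synthesis or Cbf1 and Met4 for sulfur. Genes were therefore read as 50 lists of pathways and complexes, and the promoter motifs of some of them are shown with their values. Whether motifs go with the differences between the drugs was not tested.

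Expression is given as CPM, the count of a gene scaled to the reads on all genes and by TMM. Of 6692 genes, 6588 reached 10 counts in 3 or more of the 15 samples and were tested with edgeR's quasi-likelihood test. Calls required a Benjamini-Hochberg adjusted p below 0.05 and a 1.5-fold or larger difference, and log2 fold changes are Curcumin over CPTH2 unless another pair is named. Between the drugs 3316 genes were called (50.3% of those tested), 1760 higher in Curcumin (26.7%) and 1556 lower (23.6%), and 644 differed at least 4-fold, of which 469 were higher and 175 lower in Curcumin. A share of called members is thus to be read against 26.7% for higher and 23.6% for lower, and the values of 64% of all genes did not overlap between the drugs. Over all genes the log2 fold change had a median of 0.06. When libraries were scaled by their total alone it was 0.38, and 70.5% of the calls were higher in Curcumin, against 53.1% with TMM, so that fold changes are relative to this choice. Against DMSO, 3467 genes were called in Curcumin (52.6%, with 27.9% higher and 24.7% lower) and 2043 in CPTH2 (31%, with 14.1% higher and 16.9% lower), and counts of members against DMSO are to be read against these shares. These 2 comparisons share the DMSO samples and serve only to give each drug's own values.

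Reads on genes ranged from 9062694 to 18878167 per sample. Curcumin replicates were farther from each other (distances of 40.1 to 85.9 in log2 CPM over all genes) than CPTH2 replicates (25.03 to 26.9) or DMSO replicates (15.03 to 21.2), and distances between a Curcumin and a CPTH2 sample were 81.5 to 127. Curcumin replicate 3 was the sample farthest from its group. Values without it are given for some lists only, and other lists moved as well. The a-specific genes of the labelled mating type were all detected, and of the alpha-specific genes STE3 and SAG1 had 12.6 to 49.2 CPM in Curcumin, 10.9 to 41.8 CPM in CPTH2 and 11.4 to 26.2 CPM in DMSO. Reads were counted without strand and shared between positions, so that values of overlapping genes and of close paralogs are uncertain. Among the 1301 tested genes that overlap another annotated gene 49.4% were called, and 50.6% among the other 5287.

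Ranked by the median log2 fold change of their members, 31 lists lay above 0 and 19 below. The 4 lists with the largest positive medians were the PAU, DAN and TIR mannoproteins (2.83), old yellow enzymes with OSI1 and the AAD genes (1.63), sulfate assimilation and methionine (1.31) and middle and late sporulation (1.20). The rank of the mannoproteins depends on the count filter. Only 21 of their 29 members would have passed it without the Curcumin samples, and with at least 10 counts in every sample the median was 0.35. The largest negative medians were those of the nuclear genes of the respiratory chain and ATP synthase (-1.66), gluconeogenesis and the glyoxylate cycle (-1.56), cytosolic ribosomal proteins (-1.21), lysine biosynthesis (-1.08) and alcohol and aldehyde dehydrogenases (-1.03).

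**Figure D1:**
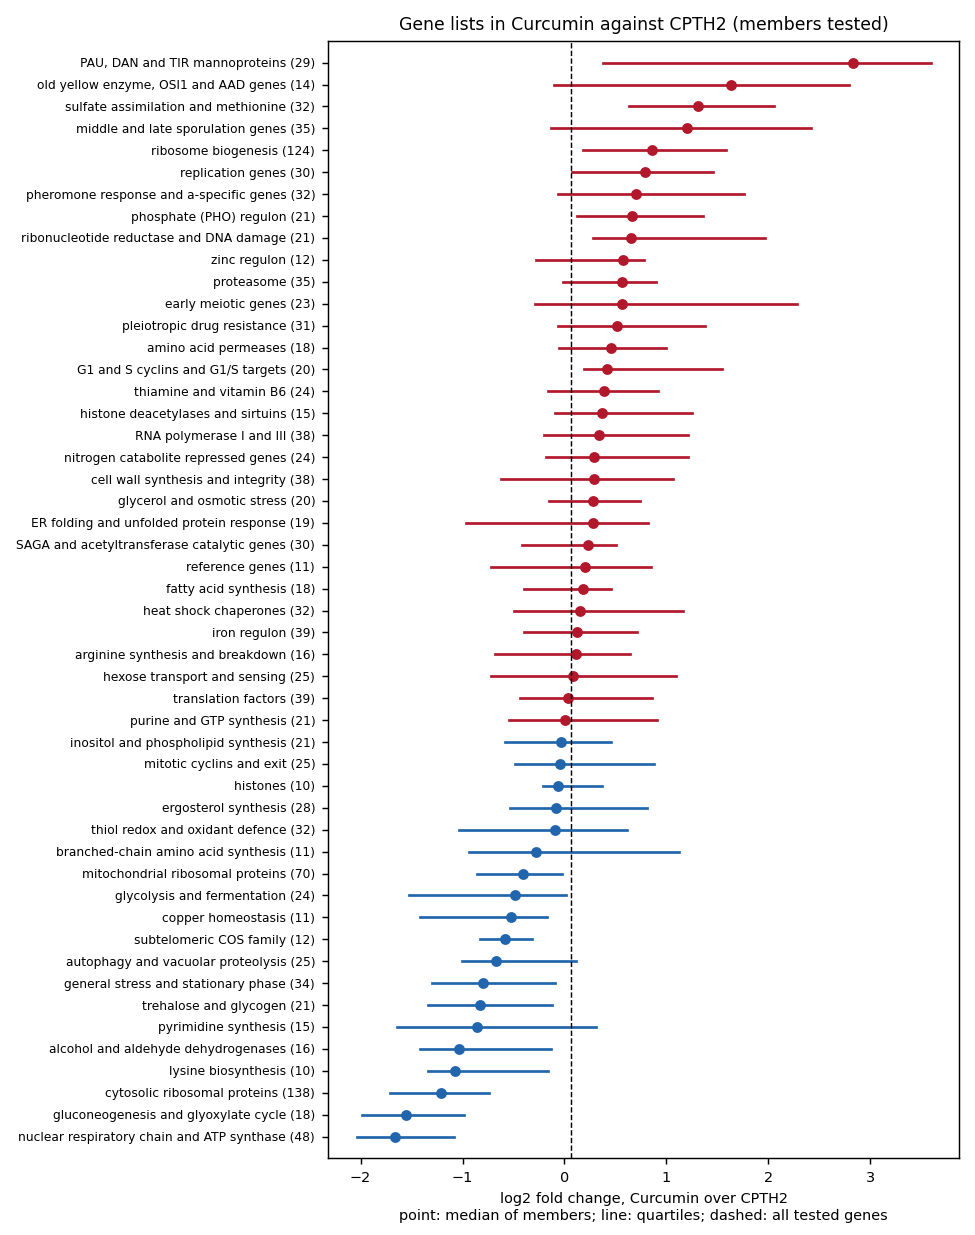
Median log2 fold change (x axis, Curcumin over CPTH2) of each of the 50 gene lists (y axis, with the number of members tested), where points are medians, lines run from the lower to the upper quartile of the members and the dashed line is the median of all genes (0.06). The lists run from the mannoproteins at 2.83 (0.35 among members with at least 10 counts in every sample) down to the respiratory chain at -1.66.

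**Figure D2:**
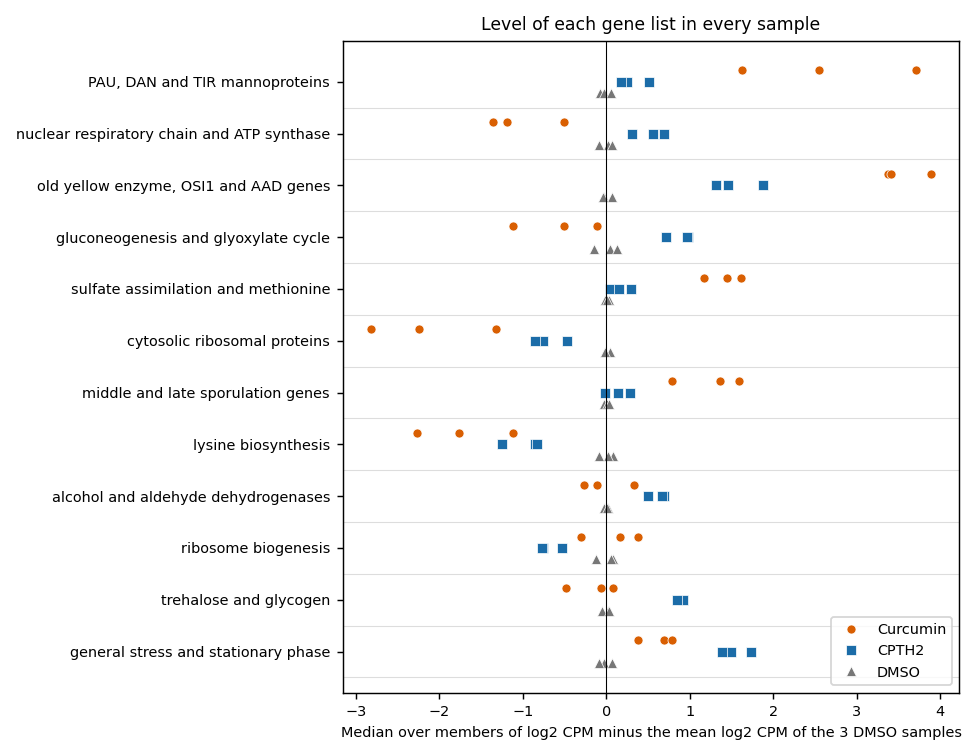
Level of 12 lists (y axis) in each of the 9 samples, as the median over members of log2 CPM minus the mean log2 CPM of the DMSO samples (x axis), with Curcumin as circles, CPTH2 as squares and DMSO as triangles. The mannoproteins lie at 1.62, 2.55 and 3.71 in Curcumin and at 0.51, 0.24 and 0.17 in CPTH2, and the respiratory chain at -0.51, -1.19 and -1.36 in Curcumin and at 0.56, 0.69 and 0.30 in CPTH2. Only 21 of the 29 mannoprotein genes would have passed the count minimum without the Curcumin samples.

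**Figure D3:**
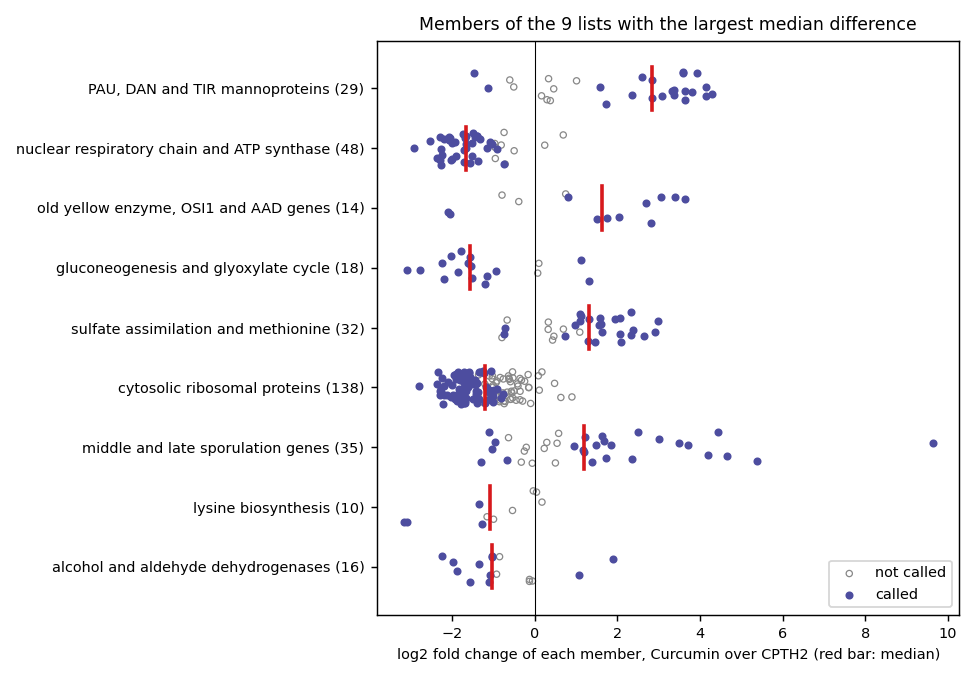
Log2 fold change (x axis, Curcumin over CPTH2) of every tested member of the 9 lists with the largest median differences (y axis), filled where the gene was called and open where it was not, with the list median as a red bar. All 39 called members of the respiratory chain list and all 79 called ribosomal protein genes lie below 0, and SPO19 stands apart at 9.63.

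Several of the genes with the largest differences in favour of Curcumin had only a few counts in CPTH2. SPO19, which encodes a meiosis-specific protein of the prospore membrane, had 164, 247 and 55.5 CPM in Curcumin, 0.197, 0.165 and 0.202 CPM in CPTH2 and 0.404, 0.333 and 0.252 CPM in DMSO. Its pooled counts were 6063 in Curcumin and 7 in CPTH2, a ratio of 803 after scaling (95% interval 389 to 1998, counting error only). RRT5, a gene expressed during sporulation, had 73, 99.9 and 41.1 CPM in Curcumin, against 0.721, 0.165 and 0.101 CPM in CPTH2, a ratio of 186 (111 to 341). Both genes were named by a rule that required no overlap between the drugs, and both were lowest in Curcumin replicate 3.

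Middle and late sporulation genes build the prospore membrane and the spore wall and are switched on in meiosis by Ndt80, which binds the middle sporulation element, while vegetative cells keep them off. Of 35 tested members 20 rose and 5 fell in Curcumin against CPTH2, and the median was 1.38 for Curcumin over DMSO and 0.17 for CPTH2 over DMSO. Of the 35, 33 would have passed the count minimum without the Curcumin samples. SPS1, a kinase needed for prospore membrane closure, had 39.2, 99.8 and 142 CPM in Curcumin, against 2.69, 2.39 and 1.61 CPM in CPTH2 (log2 fold change 5.38, SE 0.54, adjusted p = 0.000949). SPS100, a late spore wall gene, had 34.6, 73.5 and 156 CPM in Curcumin, against 3.21, 5.18 and 3.93 CPM in CPTH2, and SSP1, which shapes the leading edge of the prospore membrane, had 40.6, 96.1 and 215 CPM in Curcumin, against 7.4, 7.16 and 4.84 CPM in CPTH2. CDA2 (chitosan layer of the spore wall), CRR1 (a spore wall glycosidase homolog) and SSP2 (a regulator of the kinase Smk1) were higher by 4.64, 3.70 and 3.49 on the log2 scale. In Curcumin most of these genes were highest in replicate 3, unlike SPO19 and SSP2, which were lowest there. NDT80 itself was lower in Curcumin, with 40.2, 36.5 and 25.9 CPM in Curcumin, against 63.2, 52.3 and 49.3 CPM in CPTH2 (log2 fold change -0.68, SE 0.22, adjusted p = 0.0326). Without Curcumin replicate 3 again 20 members were higher and 5 lower.

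The core of the middle sporulation element, CACAAA on either strand, is shown before 2 of the members because it is the sequence by which Ndt80 recognises these promoters, in capitals within the 500 bases before the coding start (RefSeq, R64 assembly, the coordinates of sacCer3). It occurred in 32 of 35 members, in 22 of the 25 called members and in 29.8% of all 5936 such windows.
SPO19, chrXVI:304207-304247, plus strand: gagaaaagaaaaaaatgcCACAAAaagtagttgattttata
SPR3, chrVII:607263-607303, plus strand: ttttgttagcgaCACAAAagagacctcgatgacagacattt
SPR3, a sporulation septin shown for its element and not by the rule for named genes, had 25.2, 64.9 and 65.1 CPM in Curcumin, against 7.01, 5.84 and 6.56 CPM in CPTH2.

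Early meiotic genes act in recombination before Ndt80 is made and are held off in growing cells by Ume6. Of 23 tested members 9 were higher and 2 lower in Curcumin (median 0.56). Without Curcumin replicate 3 the median was 0.24, with 9 higher and 3 lower. SPO11, the nuclease that makes the double-strand breaks of meiosis, had 18.3, 57 and 106 CPM in Curcumin, against 4.52, 3.62 and 3.63 CPM in CPTH2 (log2 fold change 3.95, SE 0.61, adjusted p = 0.0023), and MEI4, one of its partners, had 26, 61 and 85.5 CPM in Curcumin, against 4.85, 4.52 and 3.63 CPM in CPTH2. UME6, the repressor, was higher as well, with 116, 149 and 57.9 CPM in Curcumin, against 28.8, 33 and 32.3 CPM in CPTH2.

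The mannoproteins of the PAU, DAN and TIR families are small cell wall proteins, many of them encoded near chromosome ends and known as genes of anaerobic growth and cold. Of 29 tested members 19 rose and 2 fell in Curcumin against CPTH2, and the list median was 3.22 for Curcumin over DMSO and 0.34 for CPTH2 over DMSO. All 19 that rose were PAU genes at low levels. PAU19 had 1.51, 3.84 and 7.51 CPM in Curcumin, against 0.328, 0.0823 and 0.202 CPM in CPTH2, PAU9 had 2.67, 6.06 and 13.3 CPM in Curcumin, against 0.59, 0.494 and 0.303 CPM in CPTH2 and PAU24 had 2.47, 6.41 and 17 CPM in Curcumin, against 0.655, 0.576 and 0.605 CPM in CPTH2. Their values did not overlap between the drugs and were highest in Curcumin replicate 3. The pooled counts of PAU19 were 172 and 8, a ratio of 19.9 (9.89 to 46.9), and those of PAU9 were 296 and 18, a ratio of 15.2 (9.48 to 26.1). PAU24 had a log2 fold change of 3.801 ± 0.74 (SE). PAU genes are near-identical copies that share reads, and PAU1 and PAU14 had the same values in every sample, so the members are not separate measurements. Only 21 of the 29 would have passed the count minimum without the Curcumin samples, and among members with at least 10 counts in every sample 2 were higher, with a median of 0.35. Without Curcumin replicate 3 the median was 1.85, with 18 higher and 3 lower. DAN4 and DAN1, the members that fell, had log2 fold changes of -1.48 and -1.13.

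Pheromone response genes are switched on by Ste12 when mating pheromone activates the Fus3 kinase cascade. Of 32 tested members 15 rose and 4 fell in Curcumin against CPTH2. Those that act in agglutination and cell fusion stood highest, with 8 of 12 higher and 2 lower and a median of 1.58, while the signalling genes (4 higher and 1 lower of 13) had a median of 0.12. FUS1, a membrane protein of cell fusion, had 60.3, 107 and 112 CPM in Curcumin, 11.5, 10.7 and 9.58 CPM in CPTH2 and 10.6, 11.4 and 10.5 CPM in DMSO. FIG1, a regulator of calcium entry in mating, had 8.85, 15.5 and 16.4 CPM in Curcumin, against 0.459, 1.15 and 0.202 CPM in CPTH2, and its pooled counts of 541 and 23 gave a ratio of 21.8 (14.4 to 34.7). PRM6, a pheromone-regulated potassium transporter that overlaps another annotated gene, had 9.67, 28.4 and 107 CPM in Curcumin, against 0.262, 0.494 and 0.504 CPM in CPTH2. Without the Curcumin samples 31 of the 32 members would have passed the count minimum, and PRM6 would not. STE12 had 31.5, 40.1 and 68.3 CPM in Curcumin, against 8.91, 10.9 and 12.4 CPM in CPTH2 (log2 fold change 2.13, SE 0.32, adjusted p = 0.00212). MFA1, which encodes a-factor, was higher by 2.02, while MFA2, the other a-factor gene, was lower, with 14.9, 17.8 and 31.3 CPM in Curcumin, 54.8, 39.8 and 45.4 CPM in CPTH2 and 108, 95.1 and 87.9 CPM in DMSO. STE18, the gamma subunit of the pheromone-coupled G protein, was lower, at -1.88. The alpha-factor gene MF(ALPHA)1, not expressed in normal a cells, ranged from 3.98 to 23.7 CPM in Curcumin, 0.101 to 0.852 CPM in CPTH2 and 0.707 to 1.11 CPM in DMSO.

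Old yellow enzymes reduce electrophilic carbonyls, and together with the aryl-alcohol dehydrogenase (AAD) genes and OSI1 they are known as targets of Yap1 and its relatives under thiol-reactive compounds. Both drugs raised this group against DMSO, with 11 of 14 members called higher in each, and the list median was 3.58 for Curcumin over DMSO and 1.58 for CPTH2 over DMSO. In the direct comparison 9 members were higher and 2 lower in Curcumin. AAD6 had 604, 899 and 566 CPM in Curcumin, 37.6, 84.7 and 46.2 CPM in CPTH2 and 7.58, 8.72 and 8.13 CPM in DMSO. OYE3 had 1045, 1678 and 1418 CPM in Curcumin, 124, 244 and 134 CPM in CPTH2 and 15.4, 21.6 and 16.9 CPM in DMSO, a difference of 3.05 ± 0.39 (SE) between the drugs. AAD3, AAD15 and YFL057C, also of this list, differed by 2.69, 2.82 and 3.38. Reads of the AAD genes, which are close copies, may be shared between them. OSI1 had 54.2, 89.9 and 117 CPM in Curcumin, 86.6, 261 and 106 CPM in CPTH2 and 5.46, 5.5 and 4.36 CPM in DMSO. Its values overlapped between the drugs, and the difference had a 95% interval of -1.88 to 0.30. GRE3, an aldose reductase of the stress response, was lower in Curcumin, with 64.4, 55.4 and 186 CPM in Curcumin, against 395, 506 and 411 CPM in CPTH2.

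The Yap1 site TTACTAA is shown before OYE3, whose values separated by drug, and OSI1, whose values did not. It occurred in 4 of 12 members with a window, in 2 of the 9 of these that were called and in 11.8% of all windows. In these stretches capitals mark it on either strand.
OYE3, chrXVI:227509-227591, minus strand: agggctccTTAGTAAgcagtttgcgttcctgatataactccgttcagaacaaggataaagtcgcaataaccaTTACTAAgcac
OSI1, chrXI:304888-304962, plus strand: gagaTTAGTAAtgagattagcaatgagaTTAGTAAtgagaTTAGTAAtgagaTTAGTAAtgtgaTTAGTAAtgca
YAP1, which encodes that factor, was itself higher in Curcumin, with 779.9, 977 and 715 CPM in Curcumin, against 205, 289 and 246 CPM in CPTH2 (log2 fold change 1.74, SE 0.27, adjusted p = 0.00228).

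Sulfate is taken up and reduced to sulfide by the MET enzymes, then built into homocysteine, methionine, cysteine and glutathione, under the control of Met4 with Cbf1, Met28, Met31 and Met32. Of 32 tested members 22 rose and 2 fell in Curcumin against CPTH2, and leaving out 1 sample gave 16 to 23 higher and 0 to 4 lower. The list median was 1.21 for Curcumin over DMSO and 0.14 for CPTH2 over DMSO. Among the 9 genes of sulfate uptake and reduction 7 were higher and none lower, with a median of 1.94. MET5, a subunit of sulfite reductase, had 218, 387 and 306 CPM in Curcumin, 31.6, 45.5 and 38.6 CPM in CPTH2 and 27.9, 25.6 and 24.2 CPM in DMSO. MET14, the APS kinase, had 226, 277 and 160.4 CPM in Curcumin, against 39.7, 36.8 and 30.2 CPM in CPTH2, and MET8, which makes the siroheme of sulfite reductase, was higher by 2.38. CYS3, cystathionine gamma-lyase, had 679.9, 1042 and 612 CPM in Curcumin, 86.1, 113 and 114 CPM in CPTH2 and 101, 96.8 and 92.6 CPM in DMSO (log2 fold change 2.91, SE 0.31, adjusted p = 0.000967). STR3, a cystathionine beta-lyase, and the methionine permease MUP1 each differed by 2.33. None of these 6 genes overlapped between the drugs, and for CPTH2 over DMSO MET14 (-0.69) was called lower, while MET5 (0.57) and CYS3 (0.11) were not called. Of the regulators MET28 (1.59), MET30 (1.46), MET4 (1.32), MET31 (1.10) and MET32 (1.10) were higher in Curcumin, and CBF1 was lower, with 33.1, 25.9 and 32.8 CPM in Curcumin, against 54.9, 44.8 and 52.2 CPM in CPTH2 (log2 fold change -0.72, SE 0.18, adjusted p = 0.0135).

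The E-box CACGTG, the binding site of Cbf1, is shown in capitals before 3 of the most different members. It occurred before 21 of the 32 members, before 17 of the 24 called members and in 6.17% of all windows.
MET5, chrX:683580-683625, minus strand: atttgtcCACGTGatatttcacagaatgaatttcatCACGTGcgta
MET14, chrXI:439585-439625, minus strand: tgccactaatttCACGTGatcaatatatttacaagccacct
CYS3, chrI:130569-130609, plus strand: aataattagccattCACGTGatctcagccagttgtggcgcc

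Ribosome biogenesis genes encode the assembly factors that process rRNA and build the subunits, and ribosomal protein genes encode the subunits themselves. In growing yeast the groups rise and fall together, and here they differed in opposite directions between the drugs. Of 124 tested biogenesis genes 66 were higher and 4 lower in Curcumin (median 0.86), while of 138 cytosolic ribosomal protein genes none was higher and 79 were lower (median -1.21). Against DMSO the medians of biogenesis genes were 0.08 in Curcumin and -0.70 in CPTH2, and those of ribosomal protein genes -1.99 in Curcumin and -0.70 in CPTH2. Against DMSO 119 ribosomal protein genes were called lower in Curcumin and 99 in CPTH2.

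MTR4, the helicase of the nuclear exosome that trims rRNA, had 141, 342 and 377 CPM in Curcumin, 18.2, 21.1 and 32.6 CPM in CPTH2 and 48.3, 37.5 and 39.3 CPM in DMSO. RRP9, a protein of the U3 snoRNP, had 82, 151 and 145 CPM in Curcumin, 9.89, 9.79 and 15.5 CPM in CPTH2 and 28.1, 23.5 and 22.3 CPM in DMSO, although it overlaps another annotated gene. For both genes CPTH2 lay below and Curcumin above DMSO, and the samples did not overlap. SQT1, a chaperone of the ribosomal protein uL16, differed by 2.68 ± 0.20 (SE), NOP12 by 2.73 ± 0.42 (SE), and the helicase DBP2 by 2.90 ± 0.48 (SE). NSR1, the yeast nucleolin, had 424, 275 and 222 CPM in Curcumin, against 48.8, 49.8 and 61.7 CPM in CPTH2. RNA polymerase I genes, without the shared subunits, were higher in Curcumin for 8 of 13 members, and none was lower. Of the 7 shared subunits 2 were higher and 2 lower, and of 18 RNA polymerase III genes 5 were higher and 1 lower. RRN11, of the core factor that recruits RNA polymerase I, had 18.2, 30.8 and 26.8 CPM in Curcumin, against 1.31, 2.06 and 1.21 CPM in CPTH2. RRN7, of the same factor, had 14.5, 24.9 and 50.4 CPM in Curcumin, against 4.45, 3.21 and 4.34 CPM in CPTH2. Leaving out 1 sample gave 47 to 86 biogenesis genes higher and 0 to 9 lower, with 86 higher and 5 lower without Curcumin replicate 3.

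RPL8A, of the large subunit, had 221, 84.2 and 51.8 CPM in Curcumin, 839.7, 874 and 758 CPM in CPTH2 and 1088, 1049.5 and 1025 CPM in DMSO. RPS31, which encodes ubiquitin fused to a small subunit protein, had 3059.9, 1326 and 922 CPM in Curcumin, against 11283, 8249 and 7244 CPM in CPTH2. RPL4A had 967, 441 and 189 CPM in Curcumin, against 2429.8, 2695 and 2751 CPM in CPTH2, and the difference for RPL43B was -2.36 ± 0.49 (SE). Curcumin replicate 3 was the lowest of these samples for all 4 genes, and CPTH2 was nearer to DMSO. The number of ribosomal protein genes called lower depended on the samples. It was 87 without Curcumin replicate 3, where 3 others were higher, 112 without Curcumin replicate 1, 25 without Curcumin replicate 2, 35, 41 and 47 without CPTH2 replicate 1, 2 and 3, and 44 when the test was against a 1.5-fold change. Many ribosomal proteins are encoded by a pair of paralogs, and reads common to the pair were shared between them.

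The motif GATGAG, the core of the PAC element of ribosome biogenesis promoters, occurred in 108 of 124 members. It was in 58 of the 70 called members and in 28.2% of all windows. ACCCNNACA, a core of the Rap1 site, occurred in 54 of 138 ribosomal protein genes, in 30 of the 79 called and in 5.42% of all windows. Both were searched on either strand, and stretches of members that differed in opposite directions are shown with the motif in capitals.
MTR4, chrX:342362-342402, plus strand: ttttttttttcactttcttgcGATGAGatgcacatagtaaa
RRP9, chrXVI:802219-802259, plus strand: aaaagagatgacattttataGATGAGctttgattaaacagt
RPL8A, chrVIII:36240-36280, minus strand: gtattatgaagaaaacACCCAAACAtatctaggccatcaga

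The respiratory chain and ATP synthase are assembled from nuclear and mitochondrial gene products, and glucose represses many of the nuclear genes, which Hap2/3/4/5 activates on other carbon sources. Of 48 tested nuclear genes 39 were lower in Curcumin than in CPTH2, and none was higher. The list median was -0.93 for Curcumin over DMSO and 0.52 for CPTH2 over DMSO, and against DMSO 25 members were lower in Curcumin and 22 were higher in CPTH2. All 10 members of complex IV, cytochrome c oxidase, were lower in Curcumin than in CPTH2 (median -2.06), as were 12 of 13 genes of the ATP synthase (-1.99), 9 of 11 of complex III with cytochrome c (-1.51) and 3 of 4 of complex II (-1.26).

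COX5B, a subunit of cytochrome c oxidase, had 66.8, 31 and 41.4 CPM in Curcumin, 443, 330.3 and 284 CPM in CPTH2 and 274, 287 and 322 CPM in DMSO. ATP17 of the ATP synthase had 54.2, 28.6 and 39.3 CPM in Curcumin, 257, 242 and 208 CPM in CPTH2 and 209.5, 208 and 230.5 CPM in DMSO (log2 fold change -2.53, SE 0.27, adjusted p = 0.000973). ATP20 (-2.36), COX7 (-2.30), ATP18 (-2.28) and ATP7 (-2.27) were also lower, and the samples of these 6 genes did not overlap. For CYB2, the lactate dehydrogenase that feeds cytochrome c, CPTH2 lay above DMSO and the Curcumin samples spread to both sides of DMSO, with 347, 226 and 57.1 CPM in Curcumin, 615, 1202 and 769 CPM in CPTH2 and 192, 148 and 190.3 CPM in DMSO. For NDE2, an external NADH dehydrogenase, Curcumin lay near DMSO and CPTH2 above it, with 39.8, 27.4 and 37 CPM in Curcumin, 96.9, 128 and 113 CPM in CPTH2 and 28.4, 26.6 and 35.1 CPM in DMSO. HAP4, the activating subunit of the Hap complex, had 597, 394 and 149 CPM in Curcumin, against 485, 744 and 645 CPM in CPTH2, with a difference of -0.72 and a 95% interval of -1.82 to 0.39, and was not called. HAP5, a subunit of the same complex, was lower, with 20.4, 16.1 and 16.8 CPM in Curcumin, against 35.2, 41.5 and 37.3 CPM in CPTH2, and HAP2 (-0.50) and HAP3 (0.24) were not called. SCO2, which is related to the copper chaperone of cytochrome oxidase, had 5.21, 4.53 and 10 CPM in Curcumin, against 53.6, 57.1 and 53.1 CPM in CPTH2. CCAAT, the Hap site, was before 40 of 48 members, before 34 of the 39 called members and in 62.4% of all windows.

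Gluconeogenesis and the glyoxylate cycle rebuild sugar from acetate, ethanol or lactate, and Cat8, Sip4 and Adr1 activate these genes when glucose is gone. Of 18 tested members 14 were lower and 2 higher in Curcumin than in CPTH2. Here the list median was 0.87 for CPTH2 over DMSO and -0.55 for Curcumin over DMSO. MLS1, the malate synthase of the glyoxylate cycle, had 67, 28.4 and 33.9 CPM in Curcumin, 237, 312 and 339 CPM in CPTH2 and 78.5, 54.4 and 96.2 CPM in DMSO. SFC1, a succinate-fumarate carrier, had 26.7, 14.6 and 33.5 CPM in Curcumin, 169.6, 249.8 and 225 CPM in CPTH2 and 61.9, 44.2 and 70.9 CPM in DMSO, the largest difference of the list. The acetate transporter gene ADY2 had 39.8, 38.9 and 38.3 CPM in Curcumin, 154, 217 and 188 CPM in CPTH2 and 54.8, 48.2 and 58.5 CPM in DMSO, and PCK1, phosphoenolpyruvate carboxykinase, had 252, 132 and 68.9 CPM in Curcumin, against 528, 798 and 733 CPM in CPTH2. JEN1, the lactate permease, had 627, 451 and 165 CPM in Curcumin, against 1396, 1942 and 1723 CPM in CPTH2. In each of these the CPTH2 samples were above DMSO and all Curcumin samples were below those of CPTH2. The activators CAT8 and SIP4 were lower, at -1.54 and -1.53, and ADR1 had a difference of 0.07 (95% interval -0.84 to 0.98). Invertase, SUC2, another glucose-repressed gene, had 119.7, 105 and 386 CPM in Curcumin, 1226, 2013 and 1765 CPM in CPTH2 and 144, 133 and 145 CPM in DMSO (log2 fold change -3.03, SE 0.57, adjusted p = 0.00443).

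Among alcohol and aldehyde dehydrogenases 9 of 16 were lower and 2 higher in Curcumin. Without Curcumin replicate 3 the list median was -1.27, with 11 lower and 2 higher. ADH1, the main fermentative enzyme, had 3541, 2570.1 and 1276 CPM in Curcumin, 10670.0, 6791 and 9889 CPM in CPTH2 and 12784, 12207 and 12678 CPM in DMSO, and the mitochondrial ADH3 had 105, 71.1 and 82.6 CPM in Curcumin, against 341, 323 and 364 CPM in CPTH2. ALD5, a mitochondrial aldehyde dehydrogenase, was higher in Curcumin, with 109, 66.1 and 165 CPM in Curcumin, 31.7, 24.2 and 36 CPM in CPTH2 and 82.8, 89.7 and 78.1 CPM in DMSO, where CPTH2 lay below DMSO. In glycolysis 8 of 24 members were lower and 2 higher, with hexokinase 1, HXK1, at 1606, 1227 and 1569.9 CPM in Curcumin, against 7225, 11134 and 9230.3 CPM in CPTH2. Leaving out 1 sample gave 4 to 9 lower and 0 to 3 higher, with 4 lower without Curcumin replicate 2 and 5 without CPTH2 replicate 3.

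Lists of reserve carbohydrates and of the stress response had negative medians. Of 21 genes of trehalose and glycogen 12 were lower and 1 higher in Curcumin (median -0.83). The median was 0.90 for CPTH2 over DMSO, with 17 members higher, and 0.09 for Curcumin over DMSO. GPH1, glycogen phosphorylase, which overlaps 2 annotated genes, had 329.8, 179 and 97.3 CPM in Curcumin, 1551, 1519 and 1629 CPM in CPTH2 and 551, 486 and 540.0 CPM in DMSO, and PGM2, phosphoglucomutase, had 365, 269 and 186 CPM in Curcumin, against 1092, 1247 and 1143 CPM in CPTH2. Of 34 genes of general stress and stationary phase 16 were lower and 2 higher in Curcumin (median -0.80), with medians of 0.64 for Curcumin over DMSO and 1.63 for CPTH2 over DMSO. EGO4, a gene of the diauxic shift, was the called gene with the largest difference in favour of CPTH2 among those that met the rule for named genes, with 111, 54.8 and 90.8 CPM in Curcumin, 1365, 1209.5 and 901 CPM in CPTH2 and 369, 408 and 455 CPM in DMSO (log2 fold change -3.76, SE 0.37, adjusted p = 0.000949). SOL4, a 6-phosphogluconolactonase, had 64.2, 42.9 and 31 CPM in Curcumin, against 272, 329.9 and 243 CPM in CPTH2, and SPG1, a stationary phase gene, had 32, 34.5 and 36.7 CPM in Curcumin, against 197, 168 and 134 CPM in CPTH2. MSN2, the activator of many stress genes, was higher in Curcumin, with 73, 125 and 201 CPM in Curcumin, against 35.6, 39 and 41.6 CPM in CPTH2.

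**Figure D4:**
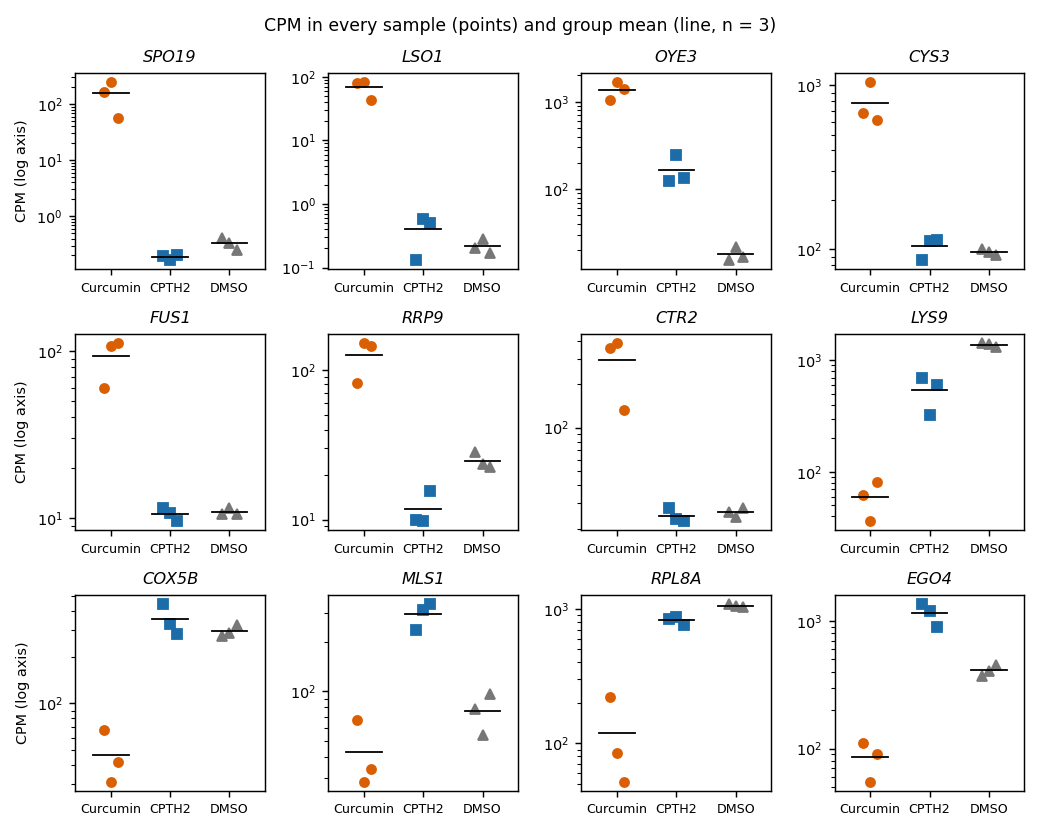
CPM (y axis, logarithmic, a scale per panel) of 12 genes in Curcumin, CPTH2 and DMSO (x axis), with a point for each sample and a line at the mean of 3. For SPO19, LSO1, OYE3, CYS3, FUS1, RRP9 and CTR2 all Curcumin samples lie above those of CPTH2, and for LYS9, COX5B, MLS1, RPL8A and EGO4 all lie below.

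Lysine is made in fungi by the aminoadipate pathway, whose genes are activated by Lys14 with its intermediate and by Gcn4 under amino acid shortage. Of 10 tested members 4 were lower and none higher in Curcumin than in CPTH2, and against DMSO 9 were lower in Curcumin and 7 in CPTH2. LYS9, saccharopine dehydrogenase, had 61.9, 36.3 and 81.1 CPM in Curcumin, 695, 325 and 605 CPM in CPTH2 and 1430.2, 1407 and 1322 CPM in DMSO (log2 fold change -3.17, SE 0.42, adjusted p = 0.00137). LYS12, homoisocitrate dehydrogenase, had 163, 51.8 and 57.3 CPM in Curcumin, 936, 570.4 and 811 CPM in CPTH2 and 1464, 1493 and 1369 CPM in DMSO. LYS5, which activates Lys2, had 17, 13.3 and 13.2 CPM in Curcumin, against 40.5, 38.9 and 32.9 CPM in CPTH2, and the regulator LYS14 had 79.7, 50.3 and 59.4 CPM in Curcumin, against 169, 127 and 165 CPM in CPTH2. In all 4 the drugs did not overlap, and in LYS9, LYS12 and LYS14 CPTH2 lay between Curcumin and DMSO. LYS20 (-1.16, adjusted p = 0.0643) and LYS21 (-0.999, adjusted p = 0.0617), the homocitrate synthases, and LYS1 (-0.54), the last enzyme, were not called. LYS4 and LYS2 had differences of 0.17 (95% interval -0.34 to 0.68) and 0.04 (-0.81 to 0.89), and both were below every DMSO sample in both drugs. The strain carries a reporter at LYS2. Without Curcumin replicate 1, 7 members were lower. Without Curcumin replicate 3, 6 were lower and the list median was -0.77.

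The Lys14 half-sites TCCNNNGGA occurred before 6 of the 10 members and in 5.95% of all windows, and the Gcn4 core TGACTC before 5 of 10 and in 12.7%. Of the 4 called members 3 had the half-sites and 2 had the Gcn4 core. Capitals mark the motifs where they occur in the stretches before the 2 members with the largest differences.
LYS9, chrXIV:715538-715618, minus strand: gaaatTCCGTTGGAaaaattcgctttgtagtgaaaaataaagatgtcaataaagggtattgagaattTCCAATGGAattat
LYS12, chrIX:187777-187822, minus strand: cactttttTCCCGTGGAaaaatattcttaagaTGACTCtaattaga

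HO, the endonuclease of mating-type switching, had 29.3, 61.1 and 72.7 CPM in Curcumin, 1.44, 0.987 and 2.02 CPM in CPTH2 and 15.1, 12 and 12.9 CPM in DMSO (log2 fold change 5.21, SE 0.45, adjusted p = 0.000909).

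Genes of DNA replication (16 higher and 2 lower of 30, median 0.79, with 10 higher without CPTH2 replicate 1 or 2) and of ribonucleotide reduction and DNA damage (10 higher and 1 lower of 21, median 0.65) stood higher in Curcumin. Without Curcumin replicate 3 the medians were 0.64 for replication and 0.39 for ribonucleotide reduction and DNA damage. POL30, the replication clamp PCNA, had 59, 112 and 171 CPM in Curcumin, 11.7, 6.17 and 11.9 CPM in CPTH2 and 43.1, 41.2 and 37.6 CPM in DMSO, although it overlaps another gene. RAD53, the checkpoint kinase, had 20.8, 51.8 and 130.1 CPM in Curcumin, against 5.04, 4.2 and 4.84 CPM in CPTH2, and RNR3, the damage-inducible subunit of ribonucleotide reductase, had 36.1, 80 and 144 CPM in Curcumin, 12.8, 12.8 and 14.7 CPM in CPTH2 and 8.08, 9 and 9.31 CPM in DMSO. In POL30 and RNR1 (2.08) CPTH2 lay below DMSO.

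In metal homeostasis single genes differed widely in both directions, while the list medians were 0.12 for iron, -0.53 for copper and 0.57 for zinc. LSO1, a small gene of the iron deprivation response under Aft1, had 80.8, 82.5 and 43 CPM in Curcumin, 0.131, 0.576 and 0.504 CPM in CPTH2 and 0.202, 0.278 and 0.168 CPM in DMSO, and its pooled counts of 2746 in Curcumin and 14 in CPTH2 gave a ratio of 182 (108 to 333). Over the iron regulon 10 of 39 were higher (25.6%, near the 26.7% of all genes) and 5 lower (12.8%, against 23.6%). The number higher was 5 and 6 without CPTH2 replicate 1 and 3. Without the Curcumin samples 38 of the 39 would have passed the count minimum, and LSO1 would not. Of the 7 siderophore uptake genes 6 were higher than DMSO in Curcumin and 7 in CPTH2, with 1 higher and 1 lower between the drugs. CCC2, the copper pump that loads the iron oxidase, had 139, 242 and 202 CPM in Curcumin, against 40.7, 58.6 and 46.8 CPM in CPTH2, and ATX1, the chaperone that delivers copper to it, had 8.23, 5.47 and 9.65 CPM in Curcumin, against 42.7, 33.6 and 27 CPM in CPTH2. Among 11 copper genes CTR2, the vacuolar copper transporter, had 357, 384 and 133 CPM in Curcumin, 27.6, 23.3 and 22.6 CPM in CPTH2 and 26.2, 24.1 and 27.9 CPM in DMSO, and FRE7, a reductase, had 46.4, 102 and 216 CPM in Curcumin, against 9.43, 12.8 and 9.78 CPM in CPTH2. The plasma membrane transporters differed the other way, with 48.5, 32.6 and 18.2 CPM in Curcumin, 180.0, 235 and 154 CPM in CPTH2 and 20.6, 14 and 20.2 CPM in DMSO for CTR3 and 18.9, 24.3 and 28.7 CPM in Curcumin, 79.1, 93.9 and 79.6 CPM in CPTH2 and 29, 27.9 and 30.7 CPM in DMSO for CTR1. Their activator MAC1 was lower in Curcumin, at -1.03, as was the metallothionein gene CRS5, at -2.08. Of 12 zinc genes 5 were higher and none lower, with 2 higher without CPTH2 replicate 1 or 3 and 3 without Curcumin replicate 2 or CPTH2 replicate 2. ZAP1, their activator, had 34.8, 60.9 and 64.3 CPM in Curcumin, against 15.8, 14.5 and 14.7 CPM in CPTH2. The phosphate transporter PHO84 had 331, 509 and 945 CPM in Curcumin, against 60.7, 67.7 and 78.5 CPM in CPTH2, and 11 of 21 PHO genes were higher and 3 lower in Curcumin.

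Genes of the acetylation machinery showed no common direction. Of 30 genes of SAGA and of acetyltransferases 5 were higher and 6 lower (median 0.23), and 3 were higher when any CPTH2 sample was left out. GCN5, which encodes the catalytic subunit that CPTH2 is meant to inhibit, had 58.4, 51.2 and 54.3 CPM in Curcumin, 72.6, 62.6 and 72.2 CPM in CPTH2 and 92.2, 88.1 and 79.6 CPM in DMSO, with a difference of -0.34 (95% interval -0.72 to 0.05) and was not called. TAF9, TAF10 and SUS1, all SAGA subunits, were lower, at -1.69, -1.55 and -1.28, and SPT20 and AHC1 were higher, at 1.497 and 1.44. Of 15 deacetylases and sirtuins 6 were higher and 3 lower (3 higher and 1 lower without CPTH2 replicate 2), with SIR2 at 33.3, 49.7 and 43.1 CPM in Curcumin, against 17.9, 16.9 and 18.9 CPM in CPTH2 and HDA1 at 31.1, 21.2 and 16 CPM in Curcumin, against 39.8, 41.4 and 51.3 CPM in CPTH2. Of 10 histone genes HHF1 (1.31) and HTB1 (1.07) were higher and none was lower. No histone gene was called without Curcumin replicate 2, CPTH2 replicate 2 or CPTH2 replicate 3. Against DMSO 8 were lower in Curcumin and 9 in CPTH2.

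Most chaperone genes were called higher than DMSO in each drug. Of 32 chaperone genes of the heat shock response 23 were higher than DMSO in Curcumin and 25 in CPTH2, and between the drugs 10 were higher and 4 lower in Curcumin (median 0.15). The counts between the drugs moved with single samples, with 2, 3 and 6 higher without CPTH2 replicate 1, CPTH2 replicate 3 and Curcumin replicate 2, and 9 lower without Curcumin replicate 3. SSA4, an inducible HSP70, had 502, 544 and 1036 CPM in Curcumin, 198, 296 and 222 CPM in CPTH2 and 61.4, 57.5 and 59 CPM in DMSO, BTN2, which gathers misfolded proteins, had 708, 1002 and 952 CPM in Curcumin, 189, 469 and 252 CPM in CPTH2 and 46.3, 62.7 and 45.8 CPM in DMSO, and HSP12, a membrane stress protein, had 1217, 627 and 823 CPM in Curcumin, 3988, 4951 and 3642 CPM in CPTH2 and 917, 656 and 1046 CPM in DMSO. HSP12 was called higher than DMSO in CPTH2 (2.26) and not in Curcumin (0.01). HSC82, an HSP90, had 2950.0, 2536 and 2425 CPM in Curcumin, 805, 1030.2 and 942 CPM in CPTH2 and 855, 822 and 733 CPM in DMSO, and was called higher than DMSO in Curcumin (1.70) and not in CPTH2 (0.20). Among 31 genes of pleiotropic drug resistance 11 were higher and 3 lower in Curcumin, and 7 were higher when any CPTH2 sample was left out. PDR12, the exporter of weak acids, had 71.5, 134 and 361 CPM in Curcumin, against 22.9, 23.3 and 27.3 CPM in CPTH2, and FLR1, an exporter under Yap1, had 135, 220.1 and 305 CPM in Curcumin, 48.7, 76.9 and 52.6 CPM in CPTH2 and 17.8, 24.2 and 21.6 CPM in DMSO. The main drug pump PDR5 had 1198, 1973 and 2910.4 CPM in Curcumin, 941, 2261 and 1338 CPM in CPTH2 and 96, 90.1 and 91.3 CPM in DMSO, with a difference of 0.43 (95% interval -0.65 to 1.503), and SNQ2 had a difference of 1.40 (-0.54 to 3.34). Of 35 proteasome genes 9 were higher (25.7%, near the 26.7% of all genes) and none lower. The number higher was 20 without Curcumin replicate 3, 6 without Curcumin replicate 1, where 3 were lower, 4 without Curcumin replicate 2 and 2, 5 and 2 without CPTH2 replicate 1, 2 and 3. RPN4, their activator, had 808, 1824 and 5829 CPM in Curcumin, 369, 573 and 391 CPM in CPTH2 and 140.1, 160.4 and 152 CPM in DMSO, with the highest value in Curcumin replicate 3.

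Gene length moved with the comparison. Coding length is taken from the files, where every length is a multiple of 3. The median log2 fold change was -0.27 in the 428 genes of up to 300 bases, -0.29 in the 1220 genes of 601 to 1000 bases and 0.59 in the 521 genes above 3000 bases, and the share called lower in Curcumin was 34.3% in the shortest and 7.87% in the longest of these classes. Against DMSO the same classes had medians of -0.39, -0.45 and 0.68 in Curcumin and of -0.14, -0.17 and 0.19 in CPTH2. The ribosomal protein genes had a median length of 433.5 bases and the respiratory genes one of 475.5, against 1095 for all genes. After the median of the same length class was subtracted from each gene, the list medians were -1.01 for ribosomal proteins, -1.43 for the respiratory chain, -1.86 for gluconeogenesis, -1.05 for lysine, 3.02 for the mannoproteins, 1.24 for sulfate and methionine, 1.14 for sporulation and 0.81 for ribosome biogenesis.

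**Figure D5:**
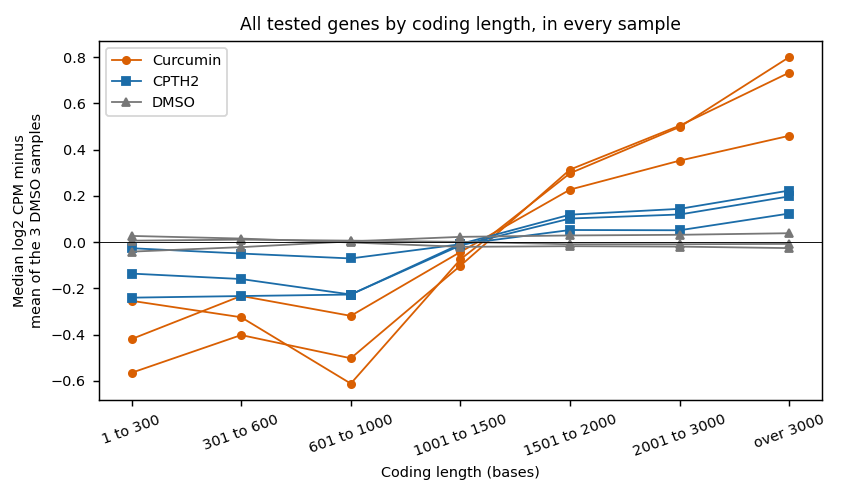
Median over all tested genes of log2 CPM minus the mean log2 CPM of the DMSO samples (y axis) in 7 classes of coding length (x axis, bases), a line for each sample of Curcumin, CPTH2 and DMSO. In each Curcumin sample the median is below 0 in genes of up to 1000 bases and above 0 in genes over 1500 bases, and the CPTH2 samples have the same signs with smaller values.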

How the data were processed

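Single-end reads of RNA from 15 cultures came from 1 sequencing lane. The authors trimmed reads with cutadapt, mapped them with segemehl to sacCer3 and counted them with NGSutils 0.5.9 without regard to strand, sharing reads of several positions. The deposited counts, whole numbers per gene without normalization, were analysed. The CPM and RPKM values deposited by the authors, scaled to mapped reads and to gene length, served only to check units.

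Genes that reached 10 counts in 3 or more of 15 samples (6588) were tested in R 4.3.3 with edgeR 4.0.16 (TMM, glmQLFit, glmQLFTest) on the 6 samples of a comparison, with Benjamini-Hochberg adjustment over all of them. The procedure was run on simulated counts in which few genes differed, as many up as down. That setting is unlike these data, where 50.3% of genes were called, so it does not check the scaling. Printed CPM use the TMM factors of all 15 samples. SE and 95% intervals were derived from each fold change with its F statistic, and ratios of pooled counts have exact binomial intervals, which cover counting error only. Alternatives were DESeq2 1.42.0, other scalings, models and filters, a replicate block, each sample left out and, added after the data were seen, the alternatives for the DMSO comparisons and subtraction of the median of a length class.

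The comparison and the gene lists were chosen with earlier results of these data known. Named genes were the 10 largest differences in each direction among called genes whose samples did not overlap with a mean of at least 10 CPM, and per list up to 6 called members with the largest differences, its regulators and all members of lists of up to 12. Not all genes that met the rule are given, and some results are not reported here. ADR1, CAT8, SIP4, DAN1, DAN4, GCN5, MFA2, MSN2, OSI1, PAU14, PDR5, SNQ2, SPR3 and STE18 were named after their values were seen. Distances are Euclidean over log2 CPM with a prior count of 2. Gene identifiers were matched to the RefSeq annotation of R64 for 6008 of 6692 genes, of which 6000 had the same coordinates. Columns of the authors' own comparisons were not used.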

Additional observations from a re-analysis of the deposited data

How the results depend on the processing

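Of the alternatives run, none changed the sign of the median of the 9 lists with the largest differences or of a named gene that was called. The medians of 16 of the 50 lists changed sign under at least 1 alternative, and these lay between -0.28 and 0.29. The 3316 genes called between the drugs became 2040 when tested against the 1.5-fold minimum (3467 became 2196 for Curcumin over DMSO, and 2043 became 1003 for CPTH2 over DMSO), and they ranged from 2189 to 3807 when 1 sample was left out, with 2189, 2277 and 2355 without CPTH2 replicate 1, 2 and 3 and 2399 without Curcumin replicate 2. CPTH2 over DMSO gave 4216 genes without a fold-change minimum and 1310 in a model of the 3 groups. Scaling by library size alone made the positive medians of the 9 lists larger and the negative ones smaller. It gave 1.63 for sulfate and methionine, -0.90 for ribosomal proteins, with 57 lower, -0.77 for lysine and -0.72 for alcohol and aldehyde dehydrogenases. With at least 10 counts in every sample the mannoproteins had a median of 0.35 and 2 members higher. Ribosomal protein genes lower in Curcumin numbered 44 against the fold minimum and 25 to 112 when 1 sample was left out, and lysine genes 4 to 7. Same-numbered replicates of the drugs deviated with correlations of 0.086, 0.124 and 0.078, and different numbers with a mean correlation of -0.047. Whether the numbers pair the samples was not tested. The replicate block gave 3173 calls, 3076 of them among the 3316. At counts as low as those of PAU19 and PAU9, ratios have wide counting intervals.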

Other observations

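Position on the chromosome was looked at after the PAU values were seen. Of 154 tested genes within 10 kb of a chromosome end 96 were higher (62.3%) and 14 lower in Curcumin than in CPTH2, against 25.7% higher among the 5986 genes at 40 kb or more. Without the PAU, DAN and TIR genes 82 of 140 were higher (58.6%). Of all 6588 tested genes 6523 would have passed the count minimum without the Curcumin samples. The others passed only with the Curcumin samples counted, and how many of them lie near an end was not counted. The shares were not recomputed without them, so part of the share near the ends may come from the filter. The share higher than DMSO in the first 10 kb was 72.1% in Curcumin and 18.2% in CPTH2, and at 40 kb or more it was 26.3% in Curcumin and 13.01% in CPTH2. The COS genes, a subtelomeric family, did not follow these shares, with 2 of 12 listed genes higher and 6 lower in Curcumin than in CPTH2. The list median was -0.59, and 3 were lower without CPTH2 replicate 1. The list also holds COS111 (-0.54, not called), which shares the name but is not of the subtelomeric family. Many of these genes are short, near-identical copies that share reads, and no test was made of the pattern.

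Further genes stood among the largest differences. YJL136W-A, an uncharacterized reading frame, had 40.1, 49.2 and 13.9 CPM in Curcumin, against 0.197, 0.247 and 0.303 CPM in CPTH2, from 1355 and 9 pooled counts, a ratio of 140 (95% interval 73.3 to 306). AQR1, a transporter that excretes amino acids, had 78.2, 169 and 379.8 CPM in Curcumin, 4.32, 4.77 and 8.47 CPM in CPTH2 and 16.2, 11.1 and 14.8 CPM in DMSO. CWP1, a mannoprotein of the cell wall at birth scars, had 91.7, 37.5 and 26.2 CPM in Curcumin, 416, 375 and 445 CPM in CPTH2 and 237, 199 and 211 CPM in DMSO. All 3 genes were named by the rule that required no overlap between the drugs. YHR054C, an uncharacterized reading frame, had 1448, 2434 and 2077 CPM in Curcumin, 55.3, 61.5 and 44.2 CPM in CPTH2 and 63.6, 61.7 and 63.1 CPM in DMSO. YNL028W had a difference of 5.29 ± 1.10 (SE) and YPR160W-A one of -3.40 ± 0.46 (SE), and both overlap another annotated gene. MEO1 and YBR126W-B, which overlap each other, had differences of -3.07 ± 0.31 (SE) and -3.18 ± 0.35 (SE). ILV5, an enzyme of branched-chain amino acid synthesis, had 1207, 902 and 1355 CPM in Curcumin, 80, 101 and 94.7 CPM in CPTH2 and 178, 159 and 156 CPM in DMSO, in a list of which 4 of 11 members were higher and 3 lower.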
